A study of Homo sapiens with 29 samples.

Results

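Interferon-stimulated genes are genes whose transcription rises when a cell receives an interferon signal. The set described here holds 42 human genes of that kind, listed by symbol and matched to the rows of a table of 58302 genes through their Ensembl identifiers. Of the 42, 39 were counted often enough to be tested, as were 13495 of all genes. USP18, which removes ISG15 from proteins, had 99 counts over all 29 libraries, the entry inhibitor IFITM1 had 8, and CMPK2, a mitochondrial nucleotide kinase, had 2. Of the 39, 31 reached 2.17 CPM (read counts relative to the TMM-scaled library size), the level that the filter required of a library, in at least 3 libraries of every group. EPSTI1, IRF9, MX1, MX2, OAS1, RSAD2, RTP4 and TRIM22 did so in fewer groups, and RSAD2, RTP4 and TRIM22 in none of the groups taken alone. RSAD2 and RTP4 reached that level only in decitabine-treated libraries, RSAD2 of resistant and RTP4 of parental tumours, and MX2 only in resistant and TRIM22 only in parental libraries. These genes had to differ between the groups concerned, so their values there are a description. The main counts of calls are also given without them, and counts of genes without overlap say where they are included.

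RNA came from orthotopic tumours in SCID-beige mice of MDA-MB-231, an established line from a human breast cancer without hormone receptors or HER2 amplification, or of 1 derivative of it made resistant to paclitaxel. These hosts lack mature T and B cells and have impaired natural killer cells, and keep their myeloid cells. Mice received decitabine (0.4 mg/kg), an inhibitor of DNA methyltransferases, doxorubicin (1 mg/kg), an anthracycline that poisons topoisomerase II, both agents, or vehicle, over 26 days in 2 cycles of 12 days with a rest of 2 days. The study asked whether resistance goes with changes of expression tied to DNA methylation and whether decitabine reverses them. Resistant tumours gave 3 libraries with decitabine, 3 with the combination, 4 with doxorubicin and 4 with vehicle. Parental tumours gave 4 libraries with decitabine, 4 with the combination, 3 with doxorubicin and 4 with vehicle. Resistant tumours were started from 1500000 cells and treated from day 16, and parental tumours from 250000 cells and from day 6, so that the line, the inoculum and the age of the tumour cannot be told apart. The labels name 4 mice for each treatment and injection on both sides, without the mouse behind each library, so that p-values measure the spread between libraries only.

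Totals ranged from 3398261 to 5382295 counts, with a median of 4600007, and the smallest belonged to resistant decitabine replicate 2. The first principal component (40.6% of the variance) separated the lines, and the second (13.2%) set parental vehicle replicate 3 and resistant decitabine replicate 2 apart from the other libraries; the calls of decitabine against vehicle are given with and without both. Group means of VIM lay between 1791 and 2745 CPM and those of CD44 between 552 and 882 CPM, as known for this mesenchymal-like line, and those of ESR1 and PGR stayed at or below 1.10 CPM. CDH1, usually described as low or absent in this line, had group means between 51.0 and 134 CPM. KRT8 and ERBB2, listed with ESR1, PGR and CDH1 as low or absent, were also counted. Their group means were 25.6 to 40.1 CPM for KRT8 and 15.3 to 22.5 CPM for ERBB2.

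Type I and type III interferons bind receptors that activate the kinases JAK1 and TYK2. Their activity leads to the complex ISGF3, which contains STAT2 and IRF9 and binds the interferon-stimulated response element (ISRE) in promoters. Type II interferon acts mainly through the gamma-activated site (GAS). In tumour cells, the same genes are also known to be switched on when sensors detect double-stranded RNA or cytosolic DNA, and DNA methyltransferase inhibitors are known in cultured cancer cells to raise transcripts of endogenous retroviruses that such sensors detect. Reads were tags near the 3′ end of polyadenylated transcripts, and counts of such tags do not depend on the length of the transcript, so that CPM of different genes are compared per transcript.

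Promoter windows running from 250 bases before to 50 bases after the transcript start were found for 35 of the 42 genes in the RefSeq table of GRCh38.p14. Other transcript starts of these genes were not searched, so that a match or its absence below holds for these windows only. The core of the ISRE (GAAA, any 2 bases, then GAAA) was searched on both strands and occurred in 24 of the 35 windows (68.6%), against 996 of all 27303 windows (3.65%). The longer form with CT after the second GAAA, each match of which also holds a core match, occurred in 17 windows (48.6%), against 74 of all windows (0.271%). The GAS letters (TTC, any 3 bases, then GAA, both strands) occurred in 10 windows (28.6%), against 2152 of all (7.88%). The 24 genes held 42 core matches, of which 30 read along the strand of the gene and 12 along the other, and none began more than 164 bases before the start. Among the windows of tested genes, 16 of the 21 whose gene was higher with decitabine on average (below) and 7 of the 12 whose gene was not called held a core match. RTP4, with a match, is among the 16, and RSAD2, without a match, is among the 12. The median ratio of observed to expected CpG was 0.377 in the 35 windows and 0.58 in all windows, and the median G+C content was 54.0% and 58.3%. The stretches that hold the core matches are printed for the 8 matched genes with the smallest p-value in the average decitabine effect. RTP4 is among these genes, although it reached the level of the filter only with decitabine. The stretches are given with 10 bases on each side and the matches in capitals (on the other strand the core reads TTTC, 2 bases, TTTC). All run 5′ to 3′ along the strand of the gene, which is the plus strand except for DDX60.
DDX60, chr4:168318786-168318850: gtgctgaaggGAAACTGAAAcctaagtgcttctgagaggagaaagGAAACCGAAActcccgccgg
IFI44, chr1:78649761-78649790: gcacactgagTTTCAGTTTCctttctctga
PARP14, chr3:122680800-122680829: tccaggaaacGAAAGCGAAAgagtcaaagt
ISG20, chr15:88638937-88638966: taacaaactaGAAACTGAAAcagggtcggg
HERC5, chr4:88456984-88457064: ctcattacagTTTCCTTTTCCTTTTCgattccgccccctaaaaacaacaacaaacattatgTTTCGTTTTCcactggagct
IFIT3, chr10:89327831-89327894: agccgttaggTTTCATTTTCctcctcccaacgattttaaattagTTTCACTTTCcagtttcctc
OAS3, chr12:112938321-112938481: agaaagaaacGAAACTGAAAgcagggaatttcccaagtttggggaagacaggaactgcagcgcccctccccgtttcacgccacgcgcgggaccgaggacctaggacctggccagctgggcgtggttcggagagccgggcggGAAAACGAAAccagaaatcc
RTP4, chr3:187368333-187368386: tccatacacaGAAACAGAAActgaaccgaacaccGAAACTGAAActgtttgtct
HERC5 has 3 matches, of which 2 overlap. For comparison, the 250 bases before the start of the ISGF3 subunit gene IRF9 and of the ligase gene HERC6, in whose windows the core was not found, are printed in lower case throughout.
IRF9, chr14:24161015-24161264: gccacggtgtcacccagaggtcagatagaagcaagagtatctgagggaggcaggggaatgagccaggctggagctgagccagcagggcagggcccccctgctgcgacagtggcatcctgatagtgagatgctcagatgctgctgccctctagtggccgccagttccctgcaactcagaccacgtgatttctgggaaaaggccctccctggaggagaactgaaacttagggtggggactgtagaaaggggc
HERC6, chr4:88378602-88378851: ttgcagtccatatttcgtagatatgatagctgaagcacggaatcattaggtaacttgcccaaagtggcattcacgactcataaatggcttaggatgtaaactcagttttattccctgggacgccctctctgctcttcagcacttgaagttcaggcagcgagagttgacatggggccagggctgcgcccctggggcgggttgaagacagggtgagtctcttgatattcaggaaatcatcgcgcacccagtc

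**Figure D1:**
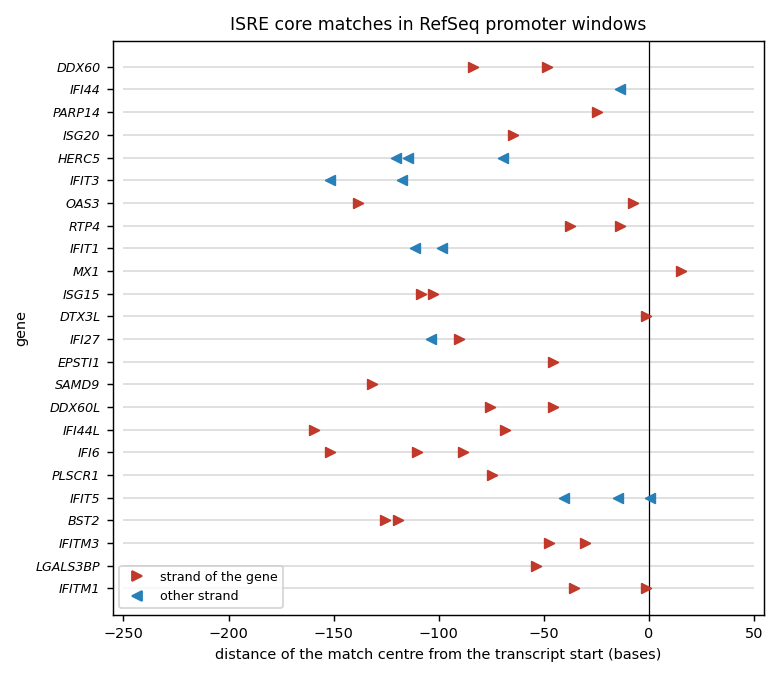
Position of each ISRE core match in the promoter windows of the 24 genes that hold one, as the distance of its centre from the transcript start in bases (x axis), with 1 gene per row; triangles point along the strand of the match. All 42 matches begin within 164 bases before the start or after it, and 30 of them read along the strand of the gene.

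Levels differed widely among the 42 genes. Over all libraries, IFITM3, a membrane protein that blocks entry of viruses, had the highest mean (452 CPM), followed by the RNA-binding IFIT3 (159 CPM), IFI27 (148 CPM), IFITM2 (148 CPM), IFIT1 (132 CPM) and IFI6 (110 CPM). A further 24 genes averaged 10 to 100 CPM and 9 of the 39 tested averaged less than 10 CPM. The summed level of the 42 genes was 2883 ± 190.0 CPM with decitabine, 3092 ± 782 CPM with the combination, 2345 ± 349 CPM with doxorubicin and 1845 ± 431 CPM with vehicle in resistant tumours (SD, n = 3, 3, 4 and 4). In parental tumours it was 1984 ± 420.5 CPM with decitabine, 2350.0 ± 237 CPM with the combination, 1728 ± 298 CPM with doxorubicin and 1872 ± 396 CPM with vehicle (SD, n = 4, 4, 3 and 4). The group with the highest mean was resistant combination for 17 genes, resistant decitabine for 13, parental combination for 4, parental decitabine for 4 and parental vehicle for 1. The lowest mean fell in parental doxorubicin for 13 genes and in resistant vehicle for 12. Single libraries moved across many of the genes at once: resistant combination replicate 1 was the highest of the resistant libraries for 22 genes, resistant vehicle replicate 2 the lowest for 21, parental doxorubicin replicate 3 the lowest of the parental libraries for 16 and parental decitabine replicate 2 the highest for 13.

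**Figure D2:**
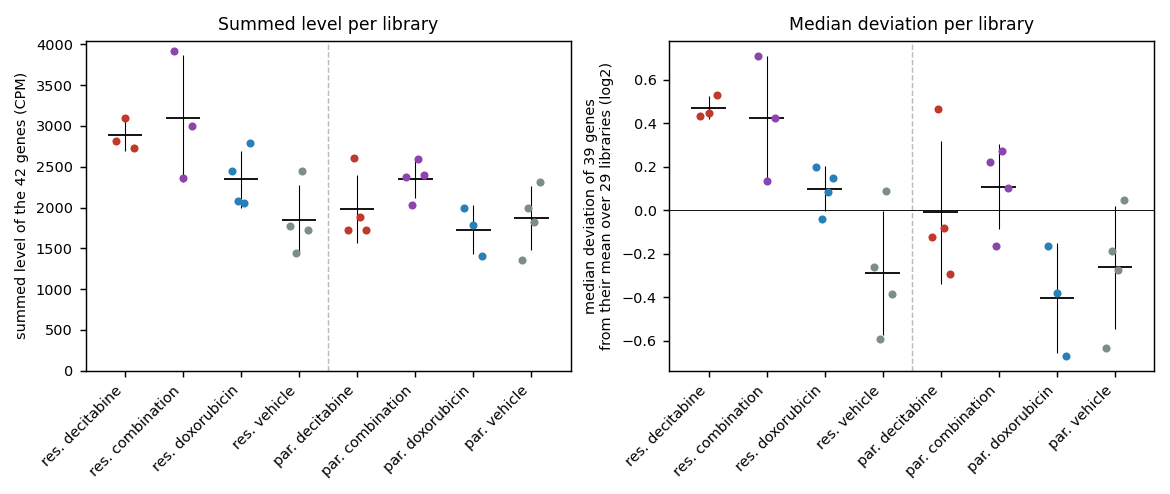
Summed level of the 42 genes in CPM (left) and median over the 39 tested genes of the log2 deviation from their own mean over 29 libraries (right), with 1 point per library, a bar at the group mean and a line of 1 SD. In resistant tumours the 3 decitabine libraries lie above all 4 vehicle libraries in both panels, whereas decitabine and vehicle libraries overlap in parental tumours.

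The effect of decitabine, averaged over both lines and over tumours with and without doxorubicin, was positive for most of the set. Expression rose for 25 of 39 genes and fell for 0 (edgeR quasi-likelihood test, adjusted p under 0.05), where 6.8% of all tested genes were called and 3.96% were higher; without RSAD2 and RTP4 it rose for 24 of 37. Log2 changes are fitted values, given ± SE where an error stands beside them. The median was 0.55 over the 39 genes and 0.54 without RSAD2, against -0.01 over all genes. Leaving out each library in turn gave 20 to 26 called genes, and leaving out the pair set apart gave 24. By role, the number of genes that rose was 10 of 11 in RNA binding and degradation, 3 of 3 tested in the ISG15 system, 3 of 3 in ADP-ribosylation and its ubiquitin ligase, 7 of 13 in growth, death and other functions (RTP4 among them), 2 of 7 tested among factors that block entry, nucleotide supply or release, and 0 of 2 for the subunits of ISGF3. In bulk tumours, a change in the number of cells that express a gene and a change in RNA per cell cannot be told apart.

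**Figure D3:**
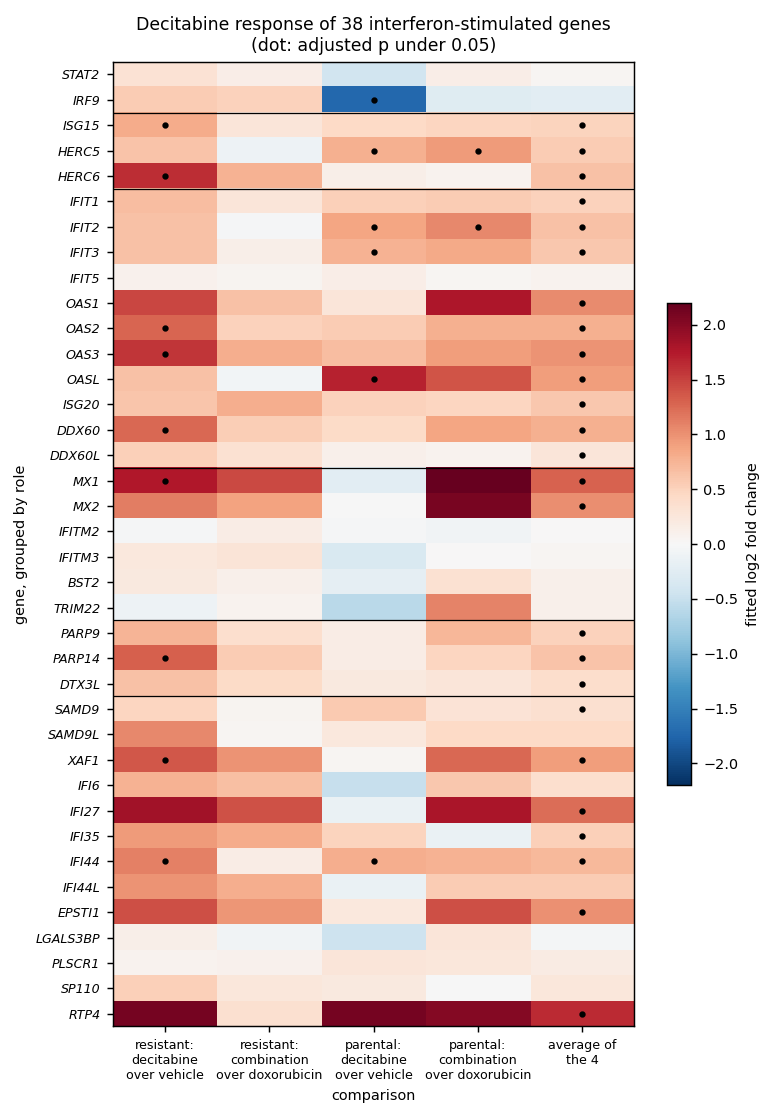
Fitted log2 fold change of 38 interferon-stimulated genes (rows, separated by role) in the 4 comparisons with and without decitabine and in their average (columns); red is higher with decitabine, and a dot marks an adjusted p under 0.05. RSAD2 is left out because 2 groups have no count of it. Of the 39 tested genes, 21 are above 0 in all 4 comparisons, and the average calls 25.

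The 4 comparisons behind this average differed in which genes passed the test. In resistant tumours, decitabine against vehicle raised 10 genes and lowered 0 (3.33% of all genes called, 2.03% higher), with a median log2 change of 0.74; without RSAD2 and RTP4, 9 of 37 rose. In parental tumours it raised 5 and lowered 1 (1.67% called, 0.793% higher and 0.874% lower), with a median of 0.22. On top of doxorubicin, edgeR called 0 genes for decitabine in resistant tumours (0.66% of all genes called), with a median of 0.35. There 14 of the 39 genes and 1687 of all 13495 genes were at an unadjusted p under 0.05, and DESeq2 called 1 of the 39. In parental tumours edgeR called 2 higher (0.304% called, 0.259% higher), with a median of 0.56. In resistant tumours, every decitabine library lay above every vehicle library for 27 of 39 genes, RSAD2 and RTP4 among them (7.9% of all genes). In parental tumours this held for 5 genes, RTP4 among them (4.56% of all genes). Every decitabine library lay below every vehicle library for 2 genes in parental tumours, IRF9 and STAT2, and for 0 in resistant tumours. The share of all genes for that direction is not reported here, so that nothing about the set is read from these counts. Every combination library lay above every doxorubicin library for 9 genes in resistant tumours (6.81% of all genes). The same held for 13 genes in parental tumours, RTP4 among them (6.8%). In both lines 0 genes lay below without overlap, and the share of all genes is not reported there either. IFI44 alone passed in both lines with decitabine alone. Of the 39 genes, 21 were above 0 in all 4 comparisons, where 8.63% of all genes were, 14 in 3, and 4 in fewer. In at least 1 of the 4, 14 were called higher and 1 lower, where 2.96% of all genes were called higher. RTP4 is among the 21 above 0 in all 4, and RSAD2 among the 14 called higher.

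These counts depended on single libraries. Without the pair set apart, PARP14, DDX60, IFI44 and RSAD2 were called in resistant tumours and OASL and IFI44 in parental tumours. RSAD2 was tested only because of its decitabine-treated libraries, so that its calls in the counts of this paragraph are a description. The resistant log2 changes that no longer passed were 1.53 for OAS3 (edgeR adjusted p = 0.081), 1.19 for OAS2 (edgeR adjusted p = 0.12), 1.18 for XAF1 (edgeR adjusted p = 0.21), 0.72 for ISG15 (edgeR adjusted p = 0.22), 1.68 for MX1 (edgeR adjusted p = 0.2) and 1.20 for HERC6 (edgeR adjusted p = 0.061). The parental ones were 0.75 for HERC5 (edgeR adjusted p = 0.06), 0.93 for IFIT2 (edgeR adjusted p = 0.056), 0.70 for IFIT3 (edgeR adjusted p = 0.092) and -1.33 for IRF9 (edgeR adjusted p = 0.091). For resistant decitabine against vehicle, 4 genes were called without resistant decitabine replicate 2 (PARP14, DDX60, IFI44 and RSAD2), 6 without resistant vehicle replicate 2 or 4, and 17 without resistant vehicle replicate 3; 18 were called with DESeq2. For parental decitabine against vehicle, 0 were called without parental decitabine replicate 3, 1 without parental vehicle replicate 4, 2 without parental vehicle replicate 3 or parental decitabine replicate 2, and 3 without parental vehicle replicate 2; 0 were called when only these groups were fitted. For the resistant combination against doxorubicin, 1 was called without resistant combination replicate 2 and 1 with DESeq2. For the parental combination against doxorubicin, 0 were called without any 1 of parental combination replicates 1, 2 and 4 or of parental doxorubicin replicates 1, 2 and 3.

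DDX60, a helicase that aids RNA sensing (chr4:168216293-168318807 on the GENCODE 29 annotation of GRCh38, ENSG00000137628), had the smallest p-value in the average effect. In resistant tumours it measured 66.8, 94.4 and 67.7 CPM with decitabine, against 31.1, 26.1, 38.9 and 29.8 CPM with vehicle, and the libraries did not overlap. With the combination it measured 84.9, 53.7 and 66.7 CPM, against 48.9, 44.2, 47.8 and 46.9 CPM with doxorubicin, again without overlap. The log2 change for decitabine against vehicle was 1.27 ± 0.20 (edgeR adjusted p = 3.7e-04), and it passed under all 14 alternatives tried. In parental tumours the levels were 26.96, 50.05, 36.5 and 27.2 CPM with decitabine, against 19.7, 25.2, 31.6 and 28.3 CPM with vehicle, and 41.9, 32.03, 51.5 and 50.6 CPM with the combination, against 26.7, 23.9 and 21.1 CPM with doxorubicin. Only the combination and doxorubicin libraries were free of overlap, and neither comparison passed (edgeR adjusted p = 0.23 for decitabine against vehicle and 0.075 for the combination against doxorubicin). Its average effect was 0.78 ± 0.10 (edgeR adjusted p = 8.2e-06). The neighbouring relative DDX60L had an average effect of 0.26 ± 0.08 (edgeR adjusted p = 0.049), a call kept in 11 of 35 alternatives. Any reads shared by both genes would make their split uncertain, which was not tested.

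Among the IFIT genes, whose products bind viral or otherwise foreign RNA and are neighbours on chromosome 10, IFIT2 (chr10:89283694-89309276) and IFIT3 (chr10:89327894-89340971) passed in parental tumours. IFIT2 stood at 41.8, 55.2, 51.7 and 29.2 CPM with decitabine, against 19.9, 22.4, 27.3 and 27.8 CPM with vehicle, and at 59.02, 62.1, 46.4 and 50.8 CPM with the combination, against 26.9, 27 and 24.2 CPM with doxorubicin. All decitabine-treated libraries lay above their controls, with log2 changes of 0.87 ± 0.21 (edgeR adjusted p = 0.036) and 1.06 ± 0.23 (edgeR adjusted p = 0.032). In resistant tumours it stood at 62.7, 49.2 and 59.8 CPM with decitabine, against 41.03, 24.3, 46.6 and 34.4 CPM with vehicle, free of overlap but not called (edgeR adjusted p = 0.099), and at 55.2, 27.6 and 56.9 CPM with the combination, against 52.1, 54.5, 45.8 and 37.9 CPM with doxorubicin, where the libraries overlapped. IFIT3 reached 139, 212, 169 and 107 CPM with decitabine in parental tumours, against 76.3, 109, 78.5 and 106 CPM with vehicle. Decitabine replicate 4 lay within the range of vehicle, and the log2 change was 0.77 ± 0.20 (edgeR adjusted p = 0.048), called in 5 of 15 alternatives. In parental tumours with the combination it reached 214, 195, 178 and 163 CPM, against 124, 104 and 87.6 CPM with doxorubicin, without overlap. In resistant tumours the levels of IFIT3 overlapped, at 224, 149.7 and 259.5 CPM with decitabine, against 133, 102, 167 and 138 CPM with vehicle, and at 274, 147 and 203 CPM with the combination, against 201, 182, 177 and 205 CPM with doxorubicin. IFIT1 had an average effect of 0.51 ± 0.10 (edgeR adjusted p = 0.002), and IFIT5, at group means of 29.2 to 38.3 CPM, was the member of this family that was not called (0.08 ± 0.09, edgeR adjusted p = 0.68). IFIT1, IFIT2 and IFIT3 overlap LIPA on the opposite strand, and the strand setting of the counting is not given in the sources used here, so that their reads could include some of LIPA.

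The oligoadenylate synthetases make the messenger that activates RNase L, and OASL is a relative without that activity that enhances RNA sensing. OASL (chr12:121019111-121039242) measured 20.3, 31.3, 24.4 and 12.5 CPM with decitabine in parental tumours, against 5.10, 9.34, 4.89 and 7.76 CPM with vehicle. With the combination it measured 24.8, 25.7, 15.9 and 20.4 CPM, against 12.3, 5.93 and 6.25 CPM with doxorubicin. Neither pair overlapped; the log2 changes were 1.70 ± 0.32 (edgeR adjusted p = 0.011) for decitabine against vehicle and 1.39 ± 0.34 (edgeR adjusted p = 0.077) for the combination against doxorubicin. In resistant tumours both pairs overlapped, at 26.3, 13 and 34.1 CPM with decitabine, against 15.3, 13.7, 17.9 and 16.5 CPM with vehicle, and at 22.7, 13.3 and 28.7 CPM with the combination, against 25.03, 28.5, 19.9 and 16.6 CPM with doxorubicin. The synthetases OAS2 and OAS3 passed in resistant tumours. OAS2 (chr12:112978395-113011723) had 48.9, 59.6 and 50.7 CPM with decitabine, against 16.5, 15.2, 36.4 and 18.8 CPM with vehicle, a log2 change of 1.28 ± 0.31 (edgeR adjusted p = 0.023). Its decitabine libraries lay above all vehicle libraries, of which replicate 3 was far above the others. Levels with the combination were 80.1, 40.6 and 48.2 CPM, against 34.8, 28.3, 37.6 and 57.04 CPM with doxorubicin, and overlapped. In parental tumours OAS2 had 22.8, 33.7, 20.9 and 16.9 CPM with decitabine, against 11.4, 18.04, 11.8 and 22.8 CPM with vehicle, and 27.7, 17.7, 32.1 and 23.1 CPM with the combination, against 17.7, 17.3 and 8.34 CPM with doxorubicin, and neither comparison passed. OAS3 averaged 73.5 ± 5.05 CPM with decitabine and 24.7 ± 7.63 CPM with vehicle in resistant tumours (SD, n = 3 and 4), a log2 change of 1.57 ± 0.35 (edgeR adjusted p = 0.014). OAS1 had the same sign in all 4 comparisons and was called on average only (1.04 ± 0.28, edgeR adjusted p = 0.022). OAS1, OAS2 and OAS3 overlap the antisense gene AC004551.1.

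ISG20, an exonuclease that degrades single-stranded RNA (chr15:88636153-88656483), showed its clearest separation in resistant tumours. Levels were 58.2, 38.7 and 50.2 CPM with decitabine, against 34.96, 29.6, 30.1 and 33.4 CPM with vehicle, and 43.5, 55.3 and 52.7 CPM with the combination, against 25.2, 33.1, 29.7 and 28.4 CPM with doxorubicin. Neither pair overlapped, but neither passed over all genes (edgeR adjusted p = 0.079 and 0.053). Parental levels were 25.1, 25.9, 17.9 and 13.5 CPM with decitabine, against 10.7, 17.4, 17.5 and 12.5 CPM with vehicle, and 29.98, 32.03, 30.3 and 26.2 CPM with the combination, against 16.5, 18 and 29.97 CPM with doxorubicin, where doxorubicin replicate 3 reached the combination. Its average effect was 0.60 ± 0.10 (edgeR adjusted p = 2.9e-04).

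The ISG15 system attaches the ubiquitin-like protein ISG15 to newly made proteins, with HERC5 as its main ligase in human cells. HERC5 (chr4:88457117-88506163) measured 41.01, 60.2, 51.5 and 36.4 CPM with decitabine in parental tumours, against 26.9, 29.3, 25.7 and 28.3 CPM with vehicle. With the combination it measured 61.1, 43.2, 36.5 and 43.95 CPM, against 27.9, 25.2 and 19.3 CPM with doxorubicin. Both pairs were free of overlap and passed, with log2 changes of 0.78 ± 0.18 (edgeR adjusted p = 0.032) and 0.93 ± 0.20 (edgeR adjusted p = 0.035). In resistant tumours HERC5 measured 42.3, 38.1 and 46.2 CPM with decitabine, against 32.05, 24.1, 27.6 and 25.5 CPM with vehicle, and 39.2, 20.5 and 39.4 CPM with the combination, against 35.8, 40.5, 36.9 and 29.3 CPM with doxorubicin. The first of these pairs did not overlap and was not called (edgeR adjusted p = 0.074), and the second overlapped, with combination replicate 2 the lowest. HERC6 is a neighbour of HERC5 that conjugates ISG15 in mouse (chr4:88378739-88443111). In resistant tumours it stood at 23.4, 64.7 and 40.03 CPM with decitabine, against 10.7, 12.2, 19.4 and 12.7 CPM with vehicle, and at 47.4, 30.9 and 27.3 CPM with the combination, against 18.02, 17.7, 23.03 and 24.4 CPM with doxorubicin. Neither pair overlapped; decitabine against vehicle gave a log2 change of 1.62 ± 0.31 (edgeR adjusted p = 0.0033), and 1.20 (edgeR adjusted p = 0.061) without the pair set apart, of which resistant decitabine replicate 2 is the highest library. In parental tumours HERC6 stood at 13.5, 23.8, 17.7 and 16.2 CPM with decitabine, against 9.97, 20.6, 19.5 and 15.3 CPM with vehicle, and at 15.3, 9.04, 18.2 and 17.3 CPM with the combination, against 20.8, 9.88 and 11.5 CPM with doxorubicin, with overlap in both. ISG15 itself rose in resistant tumours with decitabine, to 123 ± 22.6 CPM, against 69.9 ± 18.5 CPM with vehicle (SD, n = 3 and 4; log2 change 0.82 ± 0.22, edgeR adjusted p = 0.04). USP18, which was not tested, had 2.74 ± 1.31 CPM with decitabine and 0.595 ± 0.312 CPM with vehicle in resistant tumours (SD, n = 3 and 4), from 34 and 10 counts. In parental tumours it had 10 counts with decitabine and 3 with vehicle, a ratio of CPM of 2.88 with a 95% exact interval of 0.741 to 16.3 that covers counting error only.

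PARP14 and its partners PARP9 and DTX3L modify proteins by ADP-ribosylation and ubiquitination and are known to modulate STAT signalling. PARP14 (chr3:122680618-122730840) had 109.5, 126 and 110.1 CPM with decitabine in resistant tumours, against 43.7, 40.3, 57.2 and 44.7 CPM with vehicle. With the combination it had 123, 80.2 and 102 CPM, against 69.7, 60.8, 66.4 and 78.9 CPM with doxorubicin. Neither pair overlapped, and decitabine against vehicle gave the smallest p-value of the set, with a log2 change of 1.31 ± 0.18 (edgeR adjusted p = 6.8e-05). Parental tumours had 74.2, 121, 97.5 and 86.6 CPM with decitabine, against 68.9, 89.3, 87.7 and 91.3 CPM with vehicle, and 78.4, 56.98, 96.7 and 77.1 CPM with the combination, against 65.8, 59.7 and 41.4 CPM with doxorubicin, both with overlap. PARP9 averaged 29.9 ± 1.48 CPM with decitabine and 17.9 ± 4.33 CPM with vehicle in resistant tumours (SD, n = 3 and 4), and DTX3L 103 ± 7.63 CPM with decitabine and 66.5 ± 15 CPM with vehicle; neither passed (edgeR adjusted p = 0.074 and 0.067). PARP9 and DTX3L overlap head to head on opposite strands, so their reads may not be fully separate.

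IFI44, a cytoplasmic protein with antiviral and growth-restraining activity (chr1:78649796-78664078), was the gene called in both lines with decitabine alone. In resistant tumours it measured 20.96, 17.5 and 23.6 CPM with decitabine, against 9.23, 11.9, 8.82 and 8.81 CPM with vehicle, and in parental tumours 36.1, 47.6, 49.9 and 31.3 CPM with decitabine, against 24.1, 21.5, 27.01 and 22.8 CPM with vehicle. The libraries of neither line overlapped, and the log2 changes were 1.10 ± 0.20 in resistant (edgeR adjusted p = 0.0014) and 0.79 ± 0.16 in parental tumours (edgeR adjusted p = 0.018). On top of doxorubicin it measured 16.02, 13.1 and 14.9 CPM with the combination, against 14.2, 11.1, 13.2 and 13.7 CPM with doxorubicin, in resistant tumours, and 42.8, 27.5, 28.9 and 23.7 CPM with the combination, against 17.9, 20.2 and 15.9 CPM with doxorubicin, in parental tumours. Only the parental libraries were free of overlap there. Among the other genes of this class, XAF1, which promotes cell death, rose in resistant tumours with decitabine to 26.7 ± 5.81 CPM, against 10.3 ± 5.16 CPM with vehicle (SD, n = 3 and 4; log2 change 1.36 ± 0.36, edgeR adjusted p = 0.037). RTP4, a chaperone of receptors, had an average change of 1.65 ± 0.33 from 149 counts in all, and reached the level of the filter only with decitabine. With decitabine against vehicle it stood at 2.10 ± 0.73 in resistant and 2.11 ± 0.64 in parental tumours. Neither passed, and these values are a description because of that filter, so that no p-value is given for them. IFI27, a mitochondrial protein, averaged 266 ± 28.5 CPM with decitabine and 74.1 ± 70.7 CPM with vehicle in resistant tumours (SD, n = 3 and 4), a log2 change of 1.84 ± 0.63 that did not pass (edgeR adjusted p = 0.11); its vehicle replicate 3 was at 178 CPM and the other vehicle libraries at or below 52.7 CPM. IFI44L, SAMD9L, SP110, IFI6, PLSCR1 and LGALS3BP were the genes of this class not called on average.

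**Figure D4:**
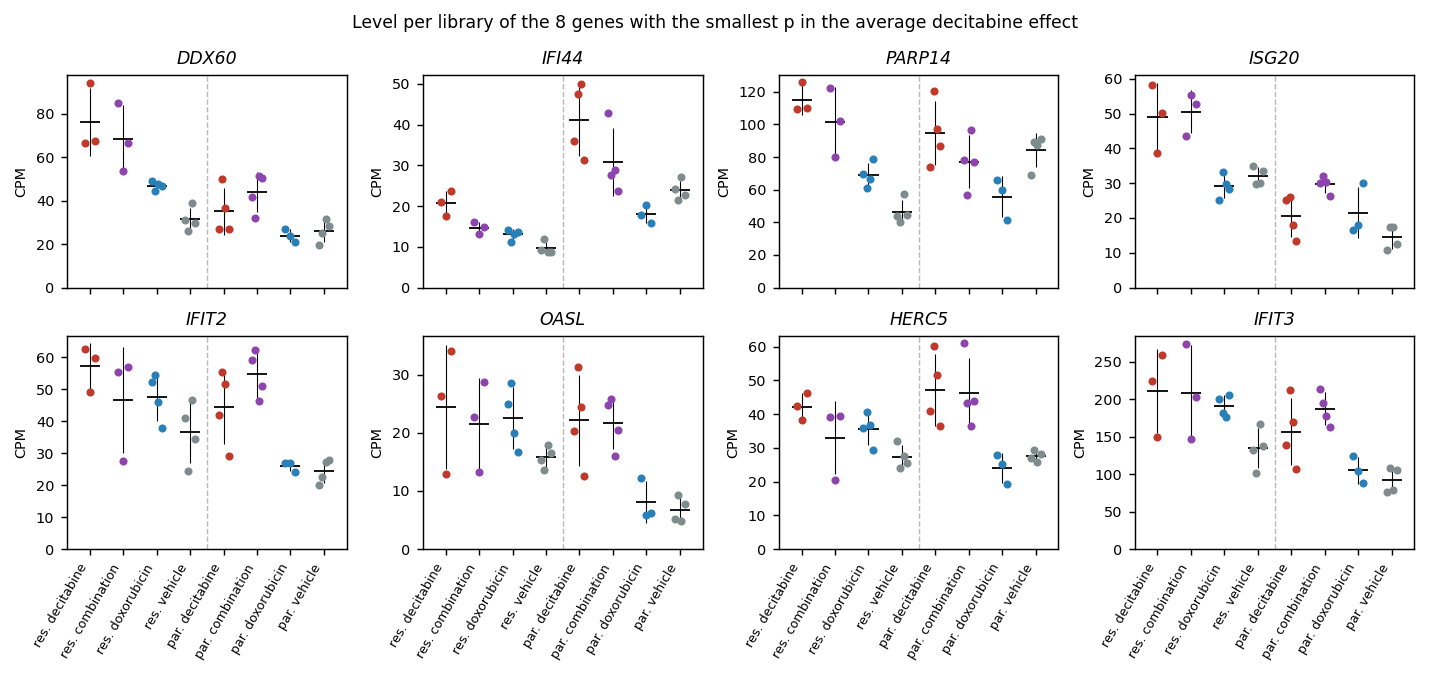
Level in CPM (y axis, from 0) of the 8 genes with the smallest p-value in the average decitabine effect, with 1 point per library, a bar at the group mean and a line of 1 SD; resistant groups stand left of the dashed line and parental groups right. DDX60, PARP14 and ISG20 separate decitabine from vehicle in resistant tumours, OASL does so in parental tumours, IFI44, IFIT2 and HERC5 do so in both, and IFIT3 in neither.

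MX1 and MX2 are dynamin-like GTPases that trap viral nucleocapsids. MX1 (chr21:41420304-41459214) had 52.2, 58.2 and 45.6 CPM with decitabine in resistant tumours, against 12.6, 6.84, 27.1 and 14.01 CPM with vehicle. With the combination it had 79.7, 52.4 and 45.4 CPM, against 19.2, 13.7, 15.9 and 37.5 CPM with doxorubicin. Neither pair overlapped; decitabine against vehicle passed with a log2 change of 1.77 ± 0.49 (edgeR adjusted p = 0.048), a call kept in 6 of 14 alternatives. In parental tumours MX1 had 4.75, 21.1, 6.44 and 6.50 CPM with decitabine, against 3.94, 11.5, 7.97 and 22.1 CPM with vehicle, and 18.2, 7.07, 25.2 and 20.4 CPM with the combination, against 4.81, 4.39 and 2.08 CPM with doxorubicin. Decitabine replicate 2 and vehicle replicate 4 were far above the rest of their groups, and the combination and doxorubicin libraries did not overlap (log2 change 2.19 ± 0.63, edgeR adjusted p = 0.17). MX2 (chr21:41361943-41409390) was at 4.93, 4.24 and 4.05 CPM with decitabine, against 2.91, 0.760, 1.58 and 2.71 CPM with vehicle, and at 8.23, 2.90 and 6.83 CPM with the combination, against 3.004, 1.96, 2.91 and 5.05 CPM with doxorubicin, in resistant tumours. Parental levels stayed low, at 0.380, 0.575, 0.195 and 0.464 CPM with decitabine, against 0, 0.652, 0.257 and 0.684 CPM with vehicle, and at 1.86, 1.18, 1.21 and 1.04 CPM with the combination, against 0.385, 0.220 and 0.261 CPM with doxorubicin. None of these MX2 comparisons passed singly, and its average effect did (1.02 ± 0.29, edgeR adjusted p = 0.031).

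RSAD2 (viperin), which makes a nucleotide that ends viral RNA synthesis, had most of its 86 counts in resistant tumours given decitabine, alone or with doxorubicin. It had 45 counts with decitabine and 0 with vehicle, at least 19.4-fold higher against a floor of 3 counts over the vehicle group; since it was tested only because of its decitabine-treated libraries, no p-value is given for it here. The combination gave 28 counts, against 3 with doxorubicin, a ratio of CPM of 12.8 with a 95% exact interval of 3.95 to 65.7 for counting error. In parental tumours it had 0 counts with decitabine and 1 with vehicle, and 8 with the combination and 1 with doxorubicin. Per library, the resistant decitabine levels were 3.08, 0.848 and 5.75 CPM and the resistant combination levels 2.81, 0 and 3.01 CPM, so that 1 combination library had no count. Its fitted average effect is not given, since 2 groups had no count. RSAD2 overlaps CMPK2 on the opposite strand, which had 2 counts in all. The other factors of this class were not called on average: IFITM2, IFITM3, BST2, a tether that holds budding viruses, and TRIM22 had average effects of 0.01, 0.05, 0.11 and 0.11 on the log2 scale. IFITM1, IFITM2 and IFITM3 are near-identical neighbours whose reads may have been split or dropped.

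The subunits of ISGF3 in the set, IRF9 and STAT2, were not called higher with decitabine in any comparison. IRF9 (chr14:24161053-24166565) had 1.33, 1.92, 1.37 and 1.16 CPM with decitabine in parental tumours, against 2.78, 3.69, 8.75 and 4.56 CPM with vehicle, and 2.61, 2.36, 3.43 and 3.75 CPM with the combination, against 2.89, 5.93 and 2.08 CPM with doxorubicin. The decitabine libraries lay below all vehicle libraries, and the log2 change of -1.73 ± 0.42 was the 1 lower call in the decitabine comparisons (edgeR adjusted p = 0.036). Without the pair set apart, of which parental vehicle replicate 3 is the highest vehicle library, it was -1.33 and no longer passed (edgeR adjusted p = 0.091). In resistant tumours IRF9 had 4.11, 11.9 and 6.39 CPM with decitabine, against 6.56, 3.55, 6.33 and 3.39 CPM with vehicle, and 4.76, 4.83 and 3.62 CPM with the combination, against 2.40, 3.05, 1.79 and 5.05 CPM with doxorubicin, with overlap in both. IRF9 had 517 counts over all libraries and overlaps the gene AL136295.5 on the same strand, so that reads in the shared part may have been left out of its count. STAT2 averaged 53.6 ± 3.48 CPM with decitabine and 72.1 ± 9.92 CPM with vehicle in parental tumours (SD, n = 4 each, edgeR adjusted p = 0.15). These decitabine libraries (50.1 to 57.1 CPM) also lay below all vehicle libraries (59.3 to 82.6 CPM), but the change did not pass. In resistant tumours STAT2 averaged 78.02 ± 16.9 CPM with decitabine and 62.6 ± 14.6 CPM with vehicle, with overlap (SD, n = 3 and 4, edgeR adjusted p = 0.32).

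Other genes of the pathway, taken from lists made for this purpose, were read in the same fit. Of 21 interferon genes, 19 had no count in any library, and IFNL1 (16 counts) and IFNK (3 counts) had few, so that none was tested and interferon RNA was not detectable at this depth for those 19. In the average decitabine effect, where 3.96% of all genes were higher and 6.8% called in either direction, 1 of 5 tested receptors rose, IFNAR2 (log2 change 0.35 ± 0.09, edgeR adjusted p = 0.012), which is a chain of the type I receptor. Among the kinases and transcription factors, IRF1, an activator of interferon-responsive promoters, rose (0.46 ± 0.10, edgeR adjusted p = 0.0029). Among 11 tested genes of nucleic acid sensing, 4 rose, which were IFIH1 (MDA5, a sensor of long double-stranded RNA; 0.75 ± 0.12, edgeR adjusted p = 2.1e-04), RIGI, AIM2 and IFI16, at log2 changes of 0.31, 0.71 and 0.26. None of 4 tested inhibitors and none of 3 genes of ISG15 conjugation was called. Of 7 tested genes that respond mainly to interferon-gamma, 1 rose, ICAM1 (0.51 ± 0.16, edgeR adjusted p = 0.047). Among 19 tested further interferon-stimulated genes outside the set, 7 rose, led by ZC3HAV1 (0.51), APOL1 (0.65), APOL6 (0.49) and LAP3 (0.38), and 1 fell, the checkpoint ligand CD274 (-0.38 ± 0.11, edgeR adjusted p = 0.028).

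Markers of other cell types were read in the average decitabine effect too, where 3.96% of all genes were higher. Of 10 myeloid markers, 6 were tested and 3 rose on average, at log2 changes of 0.81 for LAPTM5, 2.01 for FCER1G and 0.67 for CTSS. The summed level of the 10 ran from 181 to 229.7 CPM with decitabine, 166 to 183 CPM with the combination, 81.4 to 93.7 CPM with doxorubicin and 117 to 147 CPM with vehicle in resistant libraries. In parental libraries it ran from 105 to 186 CPM with decitabine, 90.7 to 145 CPM with the combination, 108 to 122 CPM with doxorubicin and 72.8 to 112 CPM with vehicle. Over all libraries LAPTM5 had 11085 counts, CD68 3214, CTSS 1957, PTPRC 462, CSF1R 207, FCER1G 150, CD14 70, CD163 24, ITGAM 5 and TYROBP 2, so that none of the 10 was at 0. Of 8 lymphoid and natural killer markers, 2 were tested and 1 rose, IL7R (0.66), while CD3E and MS4A1 had no count. Over all libraries these 8 markers had most of their counts from IL7R (1784), followed by CD8A (313), CD79A (12), CD3D (6), NKG7 (1) and GNLY (1). Their summed level ran from 29.4 to 41.7 CPM with decitabine, 16.2 to 32.8 CPM with the combination, 24.2 to 30.9 CPM with doxorubicin and 15.1 to 21.9 CPM with vehicle in resistant libraries, and from 3.25 to 8.25 CPM with decitabine, 7.08 to 11.1 CPM with the combination, 3.95 to 4.69 CPM with doxorubicin and 3.42 to 6.72 CPM with vehicle in parental libraries. Of 7 endothelial markers, 3 were tested and 1 rose, PECAM1 (0.47), with summed levels from 25.1 to 37.01 CPM with decitabine, 27.9 to 59.9 CPM with the combination, 14.7 to 26.8 CPM with doxorubicin and 16.3 to 25.3 CPM with vehicle in resistant libraries, and from 21.9 to 32.2 CPM with decitabine, 26.3 to 33.01 CPM with the combination, 34.02 to 39.6 CPM with doxorubicin and 23.3 to 41.3 CPM with vehicle in parental libraries. None of 6 tested fibroblast markers was called. Of 4 markers listed for plasmacytoid dendritic cells, which make much interferon, CLEC4C had no count, LILRA4 had 1 and IRF8 had 13. TCF4, also on that list, had 10049 counts, with group means between 56.1 and 99.9 CPM. The part of these cells in the levels of the interferon-stimulated genes was not tested, and the sources used here do not say how reads of the mouse host were handled.

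With doxorubicin alone, 0 of the 39 genes were called against vehicle in either line by edgeR, and 0 by DESeq2. In resistant tumours 37 of 39 genes were above 0, where 49.4% of all genes were, at a median log2 change of 0.43 against vehicle. Of the 39, 12 were at an unadjusted p under 0.05, as were 591 of all 13495 genes. Of all genes, edgeR called 0% and DESeq2 called 1. PARP14 had the smallest p-value there, at 0.57 ± 0.17 (edgeR adjusted p = 0.76), and RTP4 and OAS1 were at 1.68 ± 0.72 and 1.01 ± 0.50 (edgeR adjusted p = 1 and 1). In parental tumours the median was -0.17, with 13 genes above 0, where 54% of all genes were, and 0.23% of all genes called. At an unadjusted p under 0.05 were 8 of the 39 genes and 1415 of all 13495. PARP14 again had the smallest p-value, with the opposite sign (-0.59 ± 0.18, edgeR adjusted p = 0.17). MX1, TRIM22 and IFI27 had the largest changes, at -1.56 ± 0.66, -1.31 ± 0.55 and -0.99 ± 0.66 (edgeR adjusted p = 0.38, 0.38 and 0.66). Whether doxorubicin acted differently in the lines was not tested.

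The combination against vehicle raised 9 genes in resistant tumours (1.13% of all genes called, 0.911% higher) and 6 in parental tumours (1.03% called, 0.645% higher), and lowered 0 in both. The libraries did not overlap for 15 genes in resistant tumours (6.46% of all genes) and for 10 in parental tumours (5.03%), all higher with the combination. RTP4 is among the 10, and neither RSAD2 nor RTP4 is among the 15. Without RSAD2 and RTP4, 8 of 37 rose in resistant and 5 of 37 in parental tumours. These comparisons share their vehicle libraries with those of decitabine alone. The resistant calls were DDX60 (1.12 on the log2 scale), PARP14 (1.13), OAS3 (1.41), OAS2 (1.37), PARP9 (0.94), HERC6 (1.35), DTX3L (0.79), MX2 (1.58) and RSAD2, which had 28 counts, against 0 with vehicle, and was at least 11.5-fold higher. With decitabine alone DDX60 was at 1.27, PARP14 at 1.31, OAS3 at 1.57, OAS2 at 1.28, PARP9 at 0.74, HERC6 at 1.62, DTX3L at 0.64 and MX2 at 1.13. The parental calls were ISG20, IFIT2, OASL, IFIT3, HERC5 and RTP4, at log2 changes of 1.03, 1.17, 1.67, 1.02, 0.74 and 2.55. With decitabine alone the same genes were at 0.51, 0.87, 1.70, 0.77, 0.78 and 2.11. The resistant count was 1 without resistant combination replicate 1, 2 without resistant vehicle replicate 2 or 4, 3 without resistant vehicle replicate 1 and 4 without resistant combination replicate 3, and the parental count was 3 without parental vehicle replicate 3. Whether decitabine acted differently in the presence of doxorubicin was tested as an interaction. It called 0 of 39 genes in resistant tumours (0% of all genes called) and 0 in parental tumours (0.00741% of all genes called). At an unadjusted p under 0.05 were 6 of the 39 and 406 of all 13495 genes in resistant tumours. In parental tumours, 7 of the 39 and 1552 of all genes were. DESeq2 called 0 of the 39 in resistant and 0 in parental tumours.

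Between the lines, 22 of the 39 genes differed when the 4 treatments were averaged, 19 higher and 3 lower in resistant tumours, at a median log2 difference of 0.32. In this comparison 46% of all genes were called, 22.6% higher and 23.4% lower, so that 22 of 39 is not far from the share among all genes. Without MX2, RSAD2, RTP4 and TRIM22, which reached the level of the filter in 1 line only, 18 of 35 were higher and 2 lower. All 11 genes of RNA binding and degradation were higher in resistant tumours, as were MX1 (1.76 ± 0.27, edgeR adjusted p = 8.2e-06) and IFITM3 (0.56 ± 0.10, edgeR adjusted p = 7.4e-05). Among those 11, OAS1 (1.44), OAS2 (1.05 ± 0.16, edgeR adjusted p = 4.6e-06) and ISG20 (0.90) had the largest differences, and IFIT5 (0.22) the smallest. DDX60L (chr4:168356735-168537786), a relative of DDX60, differed by 0.56 ± 0.08 (edgeR adjusted p = 1.7e-06). It had 45.8, 53.7 and 51.3 CPM with decitabine, 47.8, 58.7 and 44.4 CPM with the combination, 39.1, 33.8, 49.2 and 37.5 CPM with doxorubicin and 33.99, 34.96, 42.5 and 28.2 CPM with vehicle in resistant tumours. In parental tumours it had 25.8, 41.6, 33.2 and 33.9 CPM with decitabine, 24.4, 22.6, 32.7 and 29.4 CPM with the combination, 25.97, 28.1 and 23.5 CPM with doxorubicin and 31.3, 26.1, 34.7 and 32.4 CPM with vehicle, and its vehicle libraries overlapped between the lines. XAF1 (0.91), IFI35 (0.80), HERC6 (0.70), IRF9 (0.65) and IFITM2 (0.32) made up the rest of the 19 together with MX2, at 2.78 ± 0.26. The lower genes were IFI44 (-0.96 ± 0.09, edgeR adjusted p = 1.6e-09), BST2 (-0.55 ± 0.15, edgeR adjusted p = 0.0042) and TRIM22 (-1.61 ± 0.32).

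**Figure D5:**
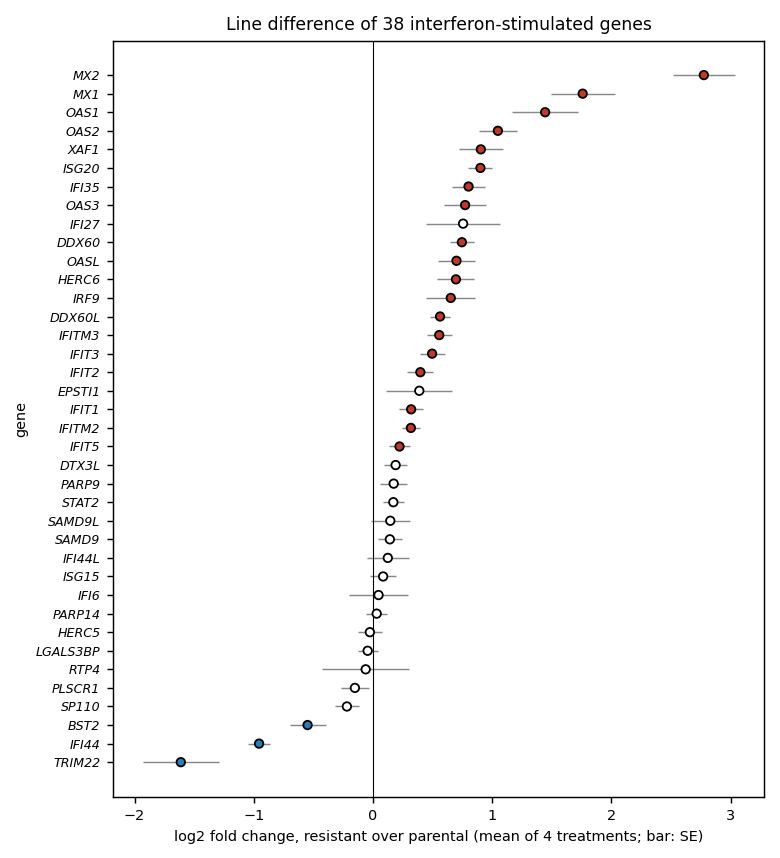
Fitted log2 fold change of 38 interferon-stimulated genes, resistant over parental tumours, averaged over 4 treatments (x axis), with a line of 1 SE; filled points have an adjusted p under 0.05 (red higher, blue lower in resistant tumours), open points do not. Of the 39 tested genes 19 are higher and 3 lower; MX2 and TRIM22, at the ends, were each counted often enough in 1 line only.

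In vehicle-treated tumours, 4 genes were higher and 4 lower in resistant tumours (20.1% of all genes called, 8.66% higher and 11.5% lower), and the median log2 difference was -0.02. These 8 of 39 are not far from the share among all genes, so that the values below describe single genes and not the set. Without the genes that reached the level of the filter in 1 line only, 3 of 35 were higher and 3 lower. ISG20 had 34.96, 29.6, 30.1 and 33.4 CPM in resistant and 10.7, 17.4, 17.5 and 12.5 CPM in parental vehicle tumours (1.14 ± 0.20, edgeR adjusted p = 1.3e-04). OASL (1.21 ± 0.33), MX2 (2.23 ± 0.56) and IFIT2 (0.59 ± 0.21, edgeR adjusted p = 0.05, just under the threshold) were the others that were higher. IFI44 had 9.23, 11.9, 8.82 and 8.81 CPM in resistant and 24.1, 21.5, 27.01 and 22.8 CPM in parental vehicle tumours (-1.30 ± 0.18, edgeR adjusted p = 8.3e-06), and PARP14 had 43.7, 40.3, 57.2 and 44.7 CPM in resistant and 68.9, 89.3, 87.7 and 91.3 CPM in parental vehicle tumours (-0.86 ± 0.17, edgeR adjusted p = 5.4e-04). ISG20, IFI44 and PARP14 did not overlap between the lines, as was so for 3 genes higher and 4 lower in resistant tumours in all (10.3% and 12% of all genes). MX2 is among the 3 and TRIM22 among the 4, and both counts are not far from the shares of all genes. SP110, a nuclear body protein (-0.62 ± 0.20), and TRIM22 (-2.48 ± 0.59) were also lower, and TRIM22, which overlaps TRIM5 on the same strand, had 164 counts in all. PARP14 was thus lower in resistant tumours with vehicle and differed by 0.03 ± 0.09 over the 4 treatments (edgeR adjusted p = 0.8).

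Whether decitabine acted differently in the lines was tested as the difference between its log2 changes, resistant minus parental, without doxorubicin. None of the 39 genes passed (0.119% of all genes called), at a smallest edgeR adjusted p of 0.052. At an unadjusted p under 0.05 were 12 of the 39 and 2640 of all 13495 genes. DESeq2 called 3 of the 39, and leaving out 1 library gave 0 to 3. PARP14 came closest, at 1.14 ± 0.25 (edgeR adjusted p = 0.052), with log2 changes of 1.31 in resistant and 0.17 in parental tumours. IRF9 differed by 2.29 ± 0.57 (edgeR adjusted p = 0.072), with 0.55 in resistant and -1.73 in parental tumours, and by 1.40 (edgeR adjusted p = 0.57) without the pair set apart. HERC6 differed by 1.49 ± 0.43 (edgeR adjusted p = 0.099), and MX1 by 2.00 ± 0.72 (edgeR adjusted p = 0.16). OASL ran the other way, at -1.06 ± 0.45 (edgeR adjusted p = 0.2). The different calls in the lines are therefore not shown to be different responses.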

How the data were processed

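Gene counts of 29 tumour libraries were analysed as deposited by the authors: whole-number counts per Ensembl gene that were not normalised. Per the labels' protocols, the libraries were QuantSeq forward 3′ tags after poly(A) selection. The submitters' processing notes name the build GRCh38.p10 and the tools STAR 2.7.3a, cutadapt, featureCounts and DESeq2; the annotation release, the strand setting and the handling of mouse reads are not given in the sources used here. Groups came from the sample titles, and all value columns were used.

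Genes passing filterByExpr (minimum count 10, minimum total 15) entered 1 quasi-likelihood fit of edgeR 4.0.16 (R 4.3.3, limma 3.58.1) over 8 group means, with TMM scaling and robust dispersions. P-values were adjusted by Benjamini-Hochberg over all 13495 genes tested, and calls were made below 0.05. The SE is the size of the log2 change divided by the square root of its F statistic. The code was tested on simulated counts. Depth limits low genes: intervals and floors (3 counts over a group) cover counting error only.

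The 42 genes, the pathway and marker lists and the tests were chosen with earlier results of these data known. Values per library are given for the 8 genes with the smallest p in the average decitabine effect, the next 4 for the line difference and the next 2 for the line difference in response. Other called members are named per comparison, with up to 3 not called that had the largest change. Genes named beyond these to complete a family or role were chosen after their values were seen. Alternatives were other scalings, no filter, DESeq2 1.42.0, a fit of the compared groups alone, a replicate block, leaving out each library, and leaving out the pair set apart. Coordinates are from GENCODE 29 (GRCh38) and promoter sequences from RefSeq (GRCh38.p14). The count for the list of kinases and transcription factors is not reported here.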

Additional observations from a re-analysis of the deposited data

Results flagged for a closer look

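Among 75 sets of 4 libraries examined for a library far from the others of its group (by the 95% critical value of Dixon's ratio of gap to range, which chance passes in about 1 of 20), 4 were found. IFI44 was at 11.91 CPM in resistant vehicle replicate 2, and the other resistant vehicle libraries lay between 8.81 and 9.23 CPM. MX1 was at 21.09 CPM in parental decitabine replicate 2, against 4.75 to 6.50 CPM in the rest of that group. OAS2 stood at 36.4 CPM in resistant vehicle replicate 3, against 15.2 to 18.8 CPM in the others. PARP14 was lowest in parental vehicle replicate 1, at 68.85 CPM, against 87.7 to 91.2 CPM in the others. With 4 of 75, the number is close to what chance gives.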

How the results depend on the processing

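The 25 genes higher with decitabine on average became 23 to 28 under the other settings, and the 22 that differed between the lines over 4 treatments became 22 to 24; both averages were not run on the compared groups alone, since they use all groups. Of 2155 recomputed values of the 104 log2 changes followed for named genes, 1941 kept their side of the threshold and 0 changed sign. The 104 were picked by a call or a large change in these same data, which makes a change of sign unlikely from the start. Values not called in either fit count as kept. Members outside these values did cross 0: the number of the 39 genes above 0 ran from 34 to 38 for the average effect, 35 to 39 for resistant and 20 to 30 for parental decitabine against vehicle. No scaling moved the median of all genes by over 0.1. Decitabine against vehicle in resistant (10 genes as reported) and parental tumours (6) and the combination against doxorubicin in resistant (0) and parental tumours (2) had 25, 11, 10 and 15 called genes without a filter on low counts, with DESeq2 18, 6, 1 and 7, with only the compared groups 6, 0, 1 and 4, and without the pair set apart 4, 2, 1 and 5. DESeq2 size factors gave 1 for the resistant combination against doxorubicin. For the combination against vehicle (9 in resistant and 6 in parental tumours), no filter gave 22 and 13; DESeq2 gave 15 and the compared groups alone 3 in resistant tumours. No filter also gave 13 for the lines with vehicle (8 as reported), 2 and 5 for doxorubicin in resistant and parental tumours (0 and 0) and 4 for the parental interaction (0). The line difference in response (0) had 12 without a filter, 3 with DESeq2, and 1 with DESeq2 size factors or upper quartile scaling. The cause was not tested.

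Leaving out 1 library at a time gave 4 to 17 and 0 to 6 called genes for decitabine against vehicle in resistant and parental tumours, 0 to 1 and 0 to 2 for the combination against doxorubicin, 1 to 10 and 3 to 6 for the combination against vehicle, 6 to 9 for the lines with vehicle and 0 to 3 for the line difference in response. That difference had 1 called gene without parental decitabine replicate 2, resistant decitabine replicate 3 or resistant vehicle replicate 3, 2 without resistant decitabine replicate 1 and 3 without parental vehicle replicate 1.

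Leaving out 1 library at a time, the number of all genes called ran from 146 to 728 and from 6 to 608 for decitabine against vehicle in resistant and parental tumours, 52 to 74 and 7 to 34 for the combination against doxorubicin, 49 to 156 and 53 to 154 for the combination against vehicle, 1 to 124 for doxorubicin against vehicle in parental tumours (0 throughout in resistant tumours), 7 to 299 for the line difference in response, 686 to 1066 for the average effect (918 as reported), and 2037 to 2542 and 5948 to 6349 for the lines with vehicle (2718) and over 4 treatments (6205). The shares of all genes given beside the members move with these counts.

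Other settings moved the number of all genes called as well. It was 450 and 225 for decitabine against vehicle in resistant and parental tumours as reported, 1089 and 942 without a filter, 649 and 499 with DESeq2, 104 and 2 with only the compared groups, and 162 and 96 without the pair. For the combination against doxorubicin it was 89 and 41, against 543 and 305, 143 and 87, 49 and 57, and 193 and 65 under those settings, and for the combination against vehicle 152 and 139, against 783 and 884, 256 and 342, 66 and 64, and 363 and 85. For doxorubicin (0 and 31) no filter gave 74 and 192 and DESeq2 1 and 150, and for the line difference in response (16) they gave 1001 and 297.

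Replicate numbers did not meet the rule for pairing, every same-numbered pair over 0.1, which 6 of 19 resistant and 9 of 21 parental pairs did. Same-numbered libraries of a line had median correlations of their deviations of 0.069 (resistant) and 0.0914 (parental), those with different numbers -0.0193 and -0.0532, and 13 of 29 libraries correlated best with their own number, a hint of pairing from the data and not from the design. A replicate block gave 11 and 7 called genes for decitabine against vehicle, 0 and 4 for the combination against doxorubicin, 6 and 6 for the combination against vehicle in resistant and parental tumours, 23 for the average effect, and 11 and 22 for the lines with vehicle and over 4 treatments.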
